A study of Saccharomyces cerevisiae with 32 samples.

Results

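The loss of oxygen was followed in strain Y22-3 in rich medium with xylose, where it grew with oxygen and did not grow without it. The comparison sets 2 anaerobic libraries against 2 aerobic libraries, of the 32 libraries in the series. All genes with a mean of at least 1 RPKM (reads per kilobase of gene, scaled to the library total) over those 4 libraries were taken, which gave 5752 of the 6328 genes in the table. Of these genes, 5347 had a mean of at least 1 RPKM in both groups, 328 passed only through the aerobic group and 77 only through the anaerobic group. A gene of the last 2 kinds was bound to differ between the groups, so such genes are marked where named and are given without a test of their change on xylose. The other 576 genes were not tested. Just inside the limit lay YFR054C, SPO74 and SSP2, with 1.0017, 1.0031 and 1.0066 RPKM, and just outside lay GEX2, YLR374C and YPR092W, with 0.9968, 0.9967 and 0.993 RPKM.

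Y22-3 is 1 engineered strain of Saccharomyces cerevisiae that carries a bacterial xylose isomerase (xylA of Clostridium phytofermentans, CpXylA in the table), a xylulose kinase (XYL3 of Scheffersomyces stipitis, PsXyl3 in the table) and an added transaldolase gene. Both groups were kept at 30 °C in rich YP medium with 2% xylose. The aerobic cultures were shaken flasks sampled in exponential growth at an optical density near 0.5. Cultures of both groups were started from a saturated aerobic glucose culture. The anaerobic cultures stood in an anaerobic chamber, were started at an optical density near 0.5, and were held for as long as strain Y128 needed to grow there. The study describes Y22-3 as not using xylose, and whether the aerobic cultures drew on the sugar or on the rich medium was not measured here. Replicates A and B were collected on different days. The loss of oxygen, the arrest of growth and the start from a dense inoculum came together and cannot be told apart here. The record of the anaerobic samples still gives an exponential growth stage, while their description gives no growth, and the description was used. Changes were set beside those of Y22-3 on 2% glucose, where it grew with and without oxygen, and beside those on xylose of Y127 and Y128, which were evolved from Y22-3. Y127 carries null mutations of ISU1 and HOG1 and did not grow anaerobically on xylose, where it was held in the same way as Y22-3, while Y128, which also lost GRE3 and IRA2, did.

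In growing yeast most messenger RNA codes for ribosomal proteins, glycolytic enzymes and other parts of the growth machinery. When nutrients or energy fail, the transcription factors Msn2 and Msn4 turn on a broad set of stress genes while ribosomal genes are shut down, and cells that stop dividing build stores of trehalose and glycogen. When oxygen fails, heme and sterol synthesis stall, repression by Rox1 is relieved, Upc2 and Mga2 become active, and cells make hypoxic isoforms of mitochondrial proteins, sterol importers and cell wall mannoproteins.

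The aerobic libraries had 7.53 and 20.9 M reads (M for 1e6) in replicates A and B, and the anaerobic ones 17.5 and 16.3 M, as recovered from the values of genes without reads. Of these totals, 73.2 and 70.2% lay on reference genes in the aerobic libraries and 61.2 and 60.6% in the anaerobic libraries. What took the other reads was not tested. Replicates differed by more than 1 log2 unit in 267 genes with oxygen and in 155 without. The standard deviation over genes of the difference between replicates was 0.45 with oxygen and 0.36 without. All values are relative to the total of a library, so fewer cells and less RNA per cell cannot be told apart from a change of a transcript. Changes were tested with limma on the deposited log2 RPKM values of 24 libraries in 12 groups, with 12 residual degrees of freedom and Benjamini-Hochberg adjustment over the 5752 genes. Every adjusted p given here comes from that test at a threshold of 0.05. An exact permutation test of 2 libraries against 2 could not give a two-sided p under 0.333.

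Most genes moved. On the deposited scale, 1207 genes (21.0% of those tested) were higher without oxygen and 3674 (63.9%) were lower, and the median change was -1.28 on the log2 scale. The middle of the distribution reached from -2.60 at the lower quartile to 0.22 at the upper quartile. Changes of at least 1 log2 unit were seen upward in 881 genes and downward in 3145, and changes of at least 4 units in 76 and 211 genes. The libraries of the 2 groups did not overlap in 1417 genes (24.6%) that lay higher and in 3867 (67.2%) that lay lower without oxygen. A random order of 2 libraries against 2 would give 16.7% in each direction.

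Much of the fall on the deposited scale was shared by most genes. The median level of the genes tested was 4.57 and 4.42 log2 RPKM in the aerobic libraries A and B and 3.48 and 3.22 in the anaerobic libraries. With each library centred on that median, every change shifted by 1.14 upward, and 2327 genes (40.5%) were higher and 2618 (45.5%) lower. All 1207 genes called higher as deposited were also called higher after centring. Of the 3674 genes called lower, 2618 stayed lower, 704 were no longer called and 352 turned higher. Another 768 genes were called higher only after centring, and 103 were called on neither scale. Among the 5347 genes that reached 1 RPKM in both groups, 21.4% were higher and 63.1% lower as deposited, and 42.0% and 44.4% after centring. A gene is said to have risen or fallen on both scales below where its call held on each, and values are on the deposited scale unless centring is named.

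**Figure D1:**
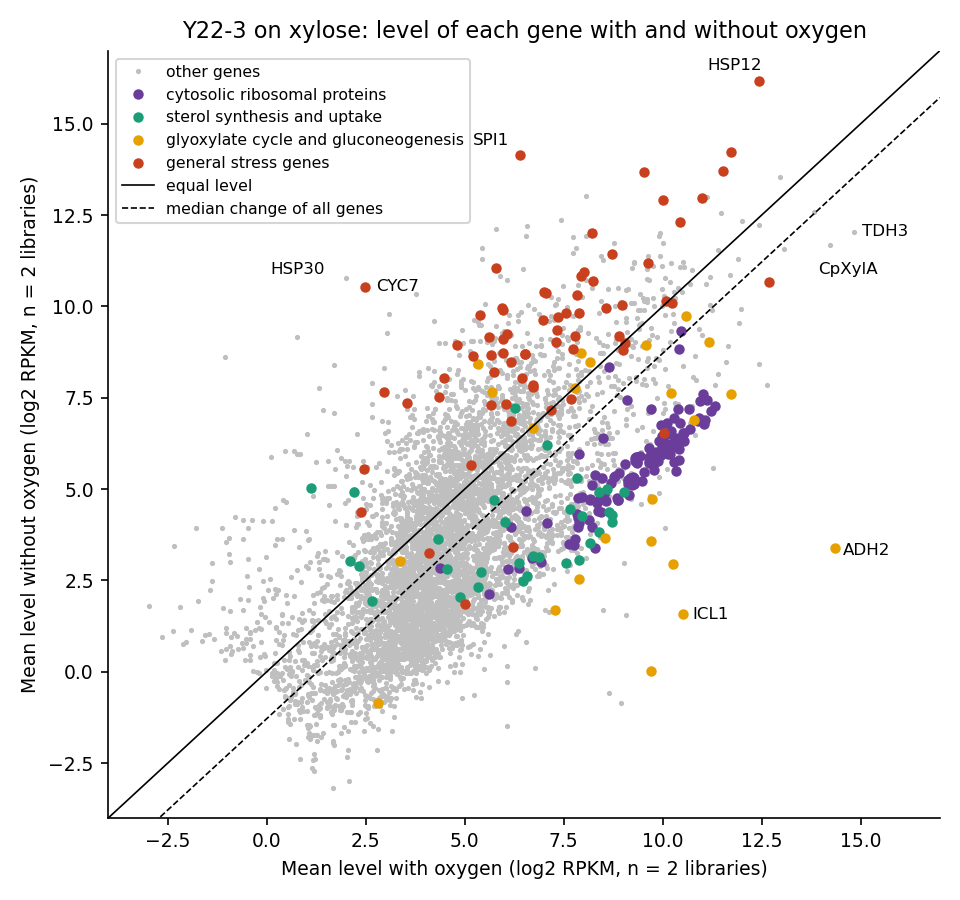
Mean log2 RPKM of each of the 5752 genes with oxygen (x axis) and without oxygen (y axis) in Y22-3 on xylose, n = 2 libraries per mean. The solid line marks an equal level and the dashed line the median change of -1.28. General stress genes lie mostly above both lines, while ribosomal protein, sterol and glyoxylate genes lie mostly below both, down to ADH2 at -10.96.

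The transcript pool became more concentrated on few genes. The genes that made up the top 50% of the summed RPKM numbered 150 and 136 in the aerobic libraries and 70 and 58 in the anaerobic libraries. The 10 most abundant genes held 16.0 and 19.7% of the sum with oxygen and 25.2 and 27.5% without. HSP12 (YFL014W), a small membrane-associated stress protein, was the most abundant transcript without oxygen, with 9.81 and 11.5% of the sum against 0.669 and 0.916% with oxygen. SPI1 (YER150W), a cell wall protein of stress and stationary phase, went from rank 1028 to rank 3, and its share from 0.0082 and 0.0172% to 2.57 and 2.63%. DDR2 (YOL052C-A), a stress protein without a clear biochemical role, took 2.77 and 2.83% without oxygen against 0.385 and 0.591%. HOR7, HSP26, OLI1, SIP18, PMP3, TMA10 and YGP1 made up the rest of the anaerobic top 10. The aerobic leaders were TDH3 (YGR192C), the main glyceraldehyde-3-phosphate dehydrogenase, ADH2 (YMR303C), which oxidises ethanol, and the introduced CpXylA. Their shares were 3.74 and 4.48%, 2.12 and 4.16% and 2.44 and 2.96% with oxygen and 0.605 and 0.607%, 0.0017 and 0.0014% and 0.508 and 0.452% without. ADH2 thereby went from rank 2 to rank 2849. TDH3 can share reads with TDH2, and ADH2 with ADH1.

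**Figure D2:**
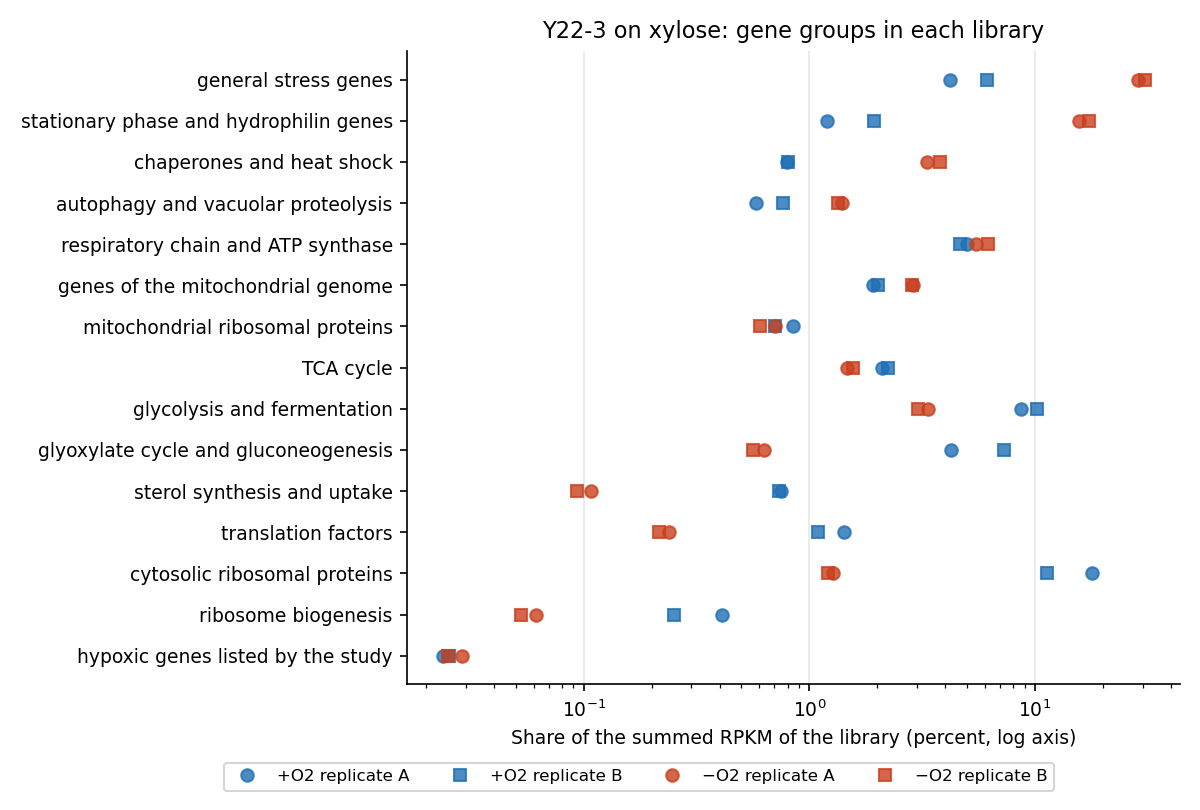
Share of the summed RPKM taken by 15 gene groups in each of the 4 Y22-3 xylose libraries (percent, log axis), with circles for replicate A and squares for replicate B. Stress and stationary phase genes hold 28.5 and 30.6% and 15.7 and 17.4% without oxygen, ribosomal proteins 1.27 and 1.21%, and the hypoxic genes listed by the study stay near 0.0287 and 0.0249%.

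The 12 largest rises on both scales, among genes with a mean of at least 10 RPKM, reached from 6.16 to 9.68 on the log2 scale. YNR014W, an uncharacterized reading frame, had -0.69 and -1.43 log2 RPKM in the aerobic libraries and 8.63 and 8.62 in the anaerobic libraries, with at most 4 reads in an aerobic library. It passed the level filter only through the anaerobic group, so its change of 9.68 is given without a test. HSP30 (YCR021C), a plasma membrane stress protein that restrains the proton pump Pma1, went from 1.67 and 2.31 to 10.58 and 10.97 log2 RPKM and rose by 8.78 (SE 0.64, adjusted p = 8.83e-11). ERR3, an enolase-like gene with near-identical copies, rose by 8.42, and its reads may be shared with them. CYC7, COX5B, SPI1 and SSA3 followed and are described with their pathways. VID24 (YBR105C) is the subunit of the GID ubiquitin ligase that recognises gluconeogenic enzymes for destruction. Its level was 3.09 and 2.96 with oxygen and 9.30 and 9.27 without, a rise of 6.26 (SE 0.19, adjusted p = 1.68e-15). CRS5, a copper-binding metallothionein, rose by 6.16. SPG1, a gene needed in stationary phase at high temperature, rose by 6.34 although its aerobic replicates lay apart, at 4.56 and 7.02. YKL065W-A, uncharacterized, and GTK30N03960, a Y22-3 gene without a reference name, rose by 6.71 and 6.45.

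The 12 largest falls by the same rule reached from -6.13 to -10.96. ADH2 had 13.92 and 14.80 log2 RPKM with oxygen and 3.55 and 3.25 without, and fell by 10.96 (SE 0.30, adjusted p = 2.81e-16), or 1989-fold. YLR307C-A, an uncharacterized small reading frame, had 1118 and 2400 reads in the aerobic libraries and 1 and 2 reads in the anaerobic libraries. Taken against a floor of 3 reads per library, it was at least 551.5-fold lower. SFC1 (YJR095W) carries succinate into mitochondria in exchange for fumarate and fell from 9.81 and 9.58 to -0.08 and 0.11 log2 RPKM. FDH1, which oxidises formate, was at 7.75 and 9.54 with oxygen and -0.40 and -0.74 without. The other large falls on both scales were ICL1 and MLS1 of the glyoxylate cycle, ARO10, a decarboxylase of amino acid breakdown, STL1, the glycerol importer, ALP1, a transporter of basic amino acids, ATO3, a putative ammonium transporter, and the unnamed Y22-3 genes GTK30P00120 and GTK30N03930. Their falls lay between 6.13 for ATO3 and 8.93 for ICL1. YLR307C-A, FDH1, GTK30P00120 and GTK30N03930 passed the level filter only through the aerobic group.

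**Figure D3:**
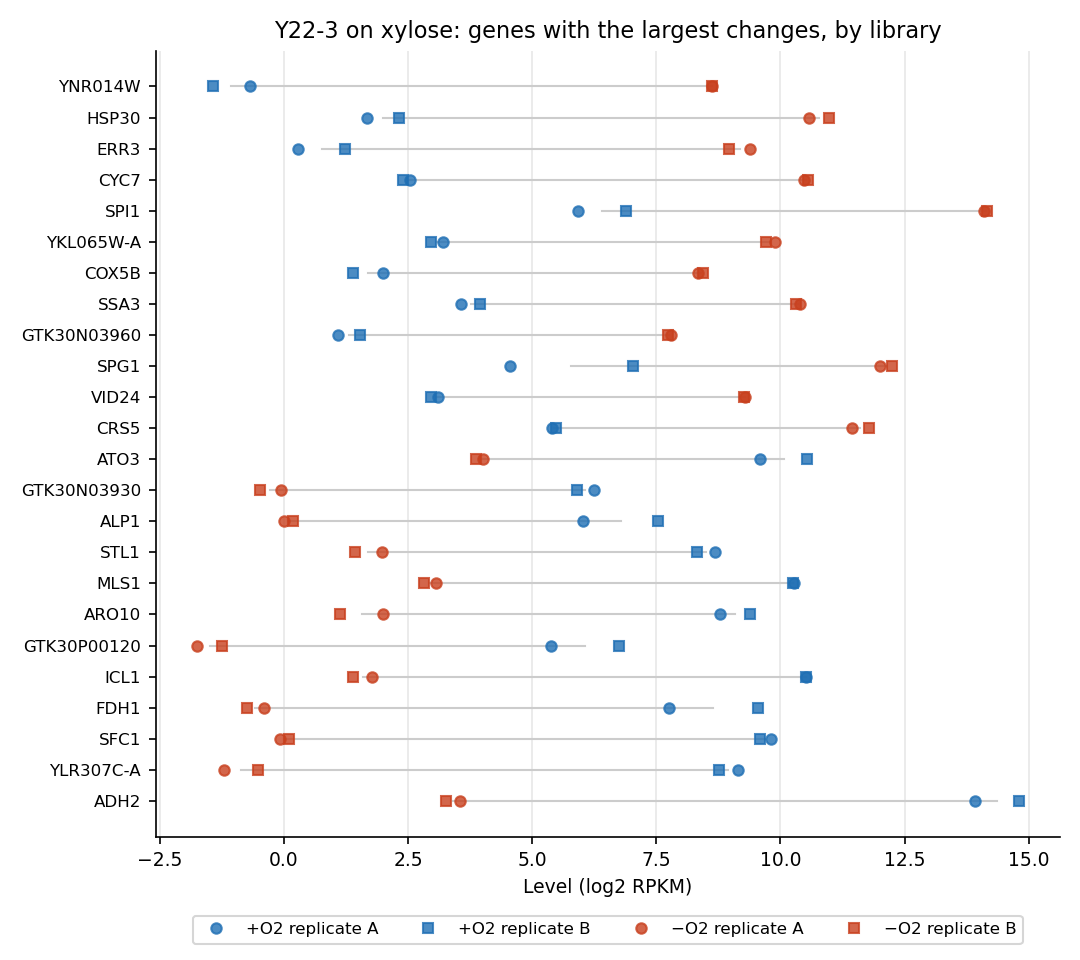
Level in log2 RPKM of the 12 genes with the largest rise and the 12 with the largest fall, in each of the 4 libraries of Y22-3 on xylose. Blue points are aerobic and red points anaerobic libraries, and the grey line joins the group means. YNR014W, which passed the filter only through the anaerobic group, lay 9.68 higher and ADH2 fell by 10.96.

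Most genes of the general stress response rose. Of 68 targets of Msn2 and Msn4, 56 were higher and 5 lower as deposited, against 21.0% and 63.9% of all genes, and 62 and 4 after centring, against 40.5% and 45.5%. Their median change was 2.27, beside -1.28 over all genes, and their share of the summed RPKM was 4.21 and 6.11% with oxygen and 28.5 and 30.6% without. HSP12 had 12.26 and 12.61 log2 RPKM with oxygen and 16.03 and 16.30 without, and rose by 3.73 (SE 0.78, adjusted p = 1.89e-04), or 13.3-fold. SPI1 was at 5.91 and 6.88 with oxygen and 14.10 and 14.17 without, a rise of 7.74 (SE 0.39, adjusted p = 6.30e-13), or 213-fold. ALD3, an aldehyde dehydrogenase of the stress response, rose by 5.27, and CTT1, the cytosolic catalase, by 1.07. Named enzymes of reserve carbohydrates that rose were TPS1 of trehalose synthesis by 2.48, its regulatory subunit TSL1 by 1.42, the glycogen synthase GSY1 by 3.54 and the glycogen phosphorylase GPH1 by 1.94. The 5 members that were lower as deposited were SOD2, the mitochondrial superoxide dismutase, at -3.50, DDR48, a DNA damage and stress gene, at -3.14, APE1, a vacuolar aminopeptidase, at -2.82, ALD4, the mitochondrial acetaldehyde dehydrogenase, at -2.04, and RIM15, a kinase of entry into quiescence, at -0.85. RIM15 changed sign and lost its call after centring, where its change was 0.29.

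Several regulators of this response rose with their targets. MSN4 was at 5.76 and 5.71 log2 RPKM with oxygen and 8.20 and 8.20 without and rose by 2.47 (SE 0.23, adjusted p = 2.69e-09). MSN2 rose by only 0.50 (adjusted p = 0.00677, limma), and without aerobic replicate B its change of 0.35 no longer passed. Larger rises were seen for USV1, a zinc finger regulator of carbon use, by 4.14, for XBP1, a repressor of cyclin genes, by 3.58, for YAK1, a kinase that opposes protein kinase A in growth control, by 3.45, and for GIS1, a regulator of entry into stationary phase, by 2.75. All of these held after centring.

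Most genes of stationary phase and of dehydration tolerance rose. Of 26 tested, 21 were higher and 3 lower as deposited, against 21.0% and 63.9% of all genes, and 22 and 3 after centring, against 40.5% and 45.5%, with a median change of 2.61. SIP18 and GRE1, hydrophilins made during drying, rose by 4.97 and 4.92, from 7.77 and 8.35 to 13.10 and 12.96 log2 RPKM in the case of SIP18. PAI3, a small inhibitor of the vacuolar protease Pep4, rose by 5.63 (SE 0.44, adjusted p = 2.83e-10). YGP1, a secreted glycoprotein made on starvation, rose by 2.90, SPG4 of stationary phase by 3.87, and TMA10, a small ribosome-associated protein, by 1.98. The 3 lower members were SNO2 of vitamin B6 metabolism at -2.75, NOP6 of ribosome biogenesis at -2.47, and OPI10 at -2.40.

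Chaperones moved both ways. Of 29 tested, 16 (55.2%) were higher and 9 (31.0%) lower as deposited, beside 21.0% and 63.9% of all genes. After centring they were 20 (69.0%) and 6 (20.7%), beside 40.5% and 45.5%. SSA3, an Hsp70 made mainly under stress, went from 3.57 and 3.95 to 10.39 and 10.30 log2 RPKM and rose by 6.59 (SE 0.38, adjusted p = 3.46e-12). The small heat shock proteins HSP26 and HSP42 rose by 4.14 and 4.03, and the disaggregase HSP104 by 2.37. The chaperones that assist new proteins on the ribosome, SSB1 and SSB2, changed by -2.73 and -3.55, and the constitutive SSE1, SSA2 and HSC82 by -2.61, -1.94 and -1.93, each lower on both scales. SSB1 and SSB2, and HSC82 and HSP82, are close copies that can share reads.

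The translation machinery fell in nearly all its parts. Of 122 cytosolic ribosomal protein genes, 121 were lower as deposited and 119 after centring, beside 63.9% and 45.5% of all genes. Their median change was -3.84, and their share of the summed RPKM was 17.95 and 11.3% with oxygen and 1.27 and 1.21% without. RPL35A of the large subunit showed the largest fall of the list, from 8.58 and 7.99 to 3.48 and 3.32 log2 RPKM, and fell by 4.89 (SE 0.27, adjusted p = 2.16e-12). RPL24A and RPL39 fell by 4.85 and 4.63. The single gene of the list not lower as deposited was RPS27A of the small subunit, at 9.04 and 8.22 with oxygen and 8.28 and 8.42 without. Its change of -0.28 was within the spread of the aerobic replicates (adjusted p = 0.328, limma), became 0.13 without aerobic replicate A and -0.69, called lower, without aerobic replicate B, and was higher after centring, at 0.86. Ribosomal protein genes mostly exist as near-identical pairs, so values of single copies are uncertain.

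Factors that build ribosomes and charge transfer RNA followed. Over all genes, 63.9% were lower as deposited and 45.5% after centring. Of 118 ribosome biogenesis genes, 115 were lower as deposited and 105 after centring (median -2.64), and of 19 subunits of RNA polymerases I and III, 18 and 16 (median -2.75). Of these lists, 18 ribosome biogenesis genes and 2 polymerase subunits passed the level filter only through the aerobic group. Without them, 97 of 100 and 16 of 17 were lower as deposited and 88 and 14 after centring. IMP3, a component of the small subunit processome, and RPC17 of RNA polymerase III were among these, with 4.09 and 3.28 and 4.24 and 3.55 log2 RPKM with oxygen and 0.19 and -0.85 and -0.77 and -0.66 without. All 20 aminoacyl-tRNA synthetases tested were lower on both scales, from -1.51 for ALA1, which charges alanine, to -3.86 for SES1, which charges serine. Of 37 translation factors, 34 were lower on both scales (median -2.62). HYP2, the main gene for the elongation factor eIF5A, fell from 11.80 and 11.63 to 7.63 and 7.57 log2 RPKM, a change of -4.12 (SE 0.21, adjusted p = 8.82e-13). Its hypoxic copy ANB1 was too low in these libraries to be tested, with a mean of 0.795 RPKM. The 2 genes are close copies and can share reads.

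Nuclear genes for mitochondrial ribosomes moved less. Of 72 tested, 11 (15.3%) were higher and 42 (58.3%) lower as deposited, beside 21.0% and 63.9% of all genes. After centring, 44 (61.1%) were higher and 15 (20.8%) lower, beside 40.5% and 45.5%, so the direction of the group depends on the scale. MRP8, the list member of the highest level, rose by 1.16, called on both scales. It entered the list by its name, its role was not checked, and it is not taken here as a mitochondrial ribosomal protein. MRP13 and MRPL11, of the small and the large mitochondrial subunit, fell by 4.06 and 3.72 on both scales.

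Transcripts of the respiratory chain did not share the fall of most genes. The 42 genes of the chain and the ATP synthase held 4.99 and 4.63% of the summed RPKM with oxygen and 5.50 and 6.17% without. As deposited, 15 (35.7%) were higher and 14 (33.3%) lower, beside 21.0% and 63.9% of all genes. Their median was 0.09, beside -1.28 over all genes. After centring, 32 (76.2%) were higher and 4 (9.52%) lower, beside 40.5% and 45.5%. QCR9 and QCR8, small subunits of the cytochrome bc1 complex, rose by 2.00 and 1.92, and COX13 of cytochrome oxidase by 1.45. COX26, a small protein bound to cytochrome oxidase, rose from 5.29 and 5.58 to 11.28 and 11.31 log2 RPKM, a change of 5.86 (SE 0.57, adjusted p = 6.85e-09). The catalytic ATP synthase subunits did not rise as deposited. ATP1 and ATP2 changed by -1.34 and -0.84, both called lower, and after centring by -0.19 and 0.30, neither called. SDH3, the membrane anchor of succinate dehydrogenase, fell by 2.95, and NDE1, the main external NADH dehydrogenase, by 3.45, both on both scales.

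The balance between isoforms of the chain shifted toward the hypoxic forms. CYC1, the aerobic cytochrome c, was at 10.13 and 9.24 log2 RPKM with oxygen and 4.97 and 4.63 without, and fell by 4.89 (SE 0.23, adjusted p = 3.93e-13). CYC7, the hypoxic isoform, was at 2.54 and 2.41 and 10.48 and 10.56 and rose by 8.05 (SE 0.48, adjusted p = 5.30e-12). The log2 ratio of CYC7 to CYC1 within a library thus went from -7.59 and -6.83 to 5.51 and 5.93. COX5B, the hypoxic form of cytochrome oxidase subunit Va, rose from 1.99 and 1.39 to 8.35 and 8.45, a change of 6.70 (SE 0.26, adjusted p = 3.05e-14). COX5A, the aerobic form, changed by -0.69, called lower, and by 0.46 after centring, called higher, so its direction depends on the scale. The ratio of COX5B to COX5A rose from -7.97 and -8.35 to -0.70 and -0.84, so the aerobic form remained the more abundant one. NDE2, the minor NADH dehydrogenase, rose by 1.97.

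HAP4, the limiting subunit of the Hap2/3/4/5 activator of respiratory genes, did not fall with the loss of oxygen. It was at 7.66 and 7.02 log2 RPKM with oxygen and 8.97 and 9.11 without, and rose by 1.70 (SE 0.23, adjusted p = 7.91e-07). HAP2, a DNA-binding subunit, rose by 1.71 and HAP1, the heme-responsive activator, by 0.55. Of 12 tested genes encoded in mitochondrial DNA, 6 were higher and 2 lower as deposited, beside 21.0% and 63.9% of all genes. After centring 10 of the 12 were higher, beside 40.5% of all genes. The share of the mitochondrially encoded genes in the summed RPKM was 1.91 and 2.02% with oxygen and 2.88 and 2.86% without. VAR1, the mitochondrially encoded ribosomal protein, rose by 1.64 and COB, cytochrome b, by 0.92.

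In the tricarboxylic acid cycle, 3 of 17 genes (17.6%) were higher and 12 (70.6%) lower as deposited, beside 21.0% and 63.9% of all genes. After centring, 8 (47.1%) were higher and 6 (35.3%) lower, beside 40.5% and 45.5%. These shares lay near those of all genes. LSC1 and LSC2, the subunits of succinyl-CoA ligase, fell from 10.03 and 10.19 to 5.78 and 5.32 and from 9.15 and 9.39 to 5.36 and 4.86 log2 RPKM, changes of -4.56 and -4.16 (adjusted p = 2.99e-14 and 1.80e-13, limma). KGD2 of the preceding enzyme, alpha-ketoglutarate dehydrogenase, rose by 1.19.

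The glyoxylate cycle and gluconeogenesis, which make sugar from ethanol and acetate, held some of the largest falls. Of 23 genes, 3 were higher and 16 lower as deposited, a share of 69.6% lower beside 63.9% of all genes, and 6 and 14 after centring, 60.9% beside 45.5%, with a median change of -3.68, and their share of the summed RPKM was 4.25 and 7.31% with oxygen and 0.631 and 0.563% without. ICL1 (YER065C), isocitrate lyase, was at 10.51 and 10.51 log2 RPKM with oxygen and 1.77 and 1.40 without and fell by 8.93 (SE 0.16, adjusted p = 3.11e-19), or 486-fold. MLS1, malate synthase, fell from 10.27 and 10.24 to 3.06 and 2.81, and IDP2, the cytosolic isocitrate dehydrogenase, by 6.11. The gluconeogenic enzymes PCK1, which makes phosphoenolpyruvate, and FBP1, fructose-1,6-bisphosphatase, were at 11.04 and 10.55 and 9.69 and 9.76 with oxygen and at 7.09 and 6.68 and 4.89 and 4.57 without. They fell by 3.91 and 5.00. The acetate importer ADY2 fell by 4.11 and acetyl-CoA synthetase ACS1 by 2.14. CIT2, the peroxisomal citrate synthase, was called lower at -0.87 but not after centring, at 0.28.

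The activators of these genes did not move together. CAT8, the zinc cluster activator of gluconeogenic genes, was at 5.26 and 5.42 log2 RPKM with oxygen and 8.39 and 8.44 without and rose by 3.08 (SE 0.29, adjusted p = 3.60e-09). SIP4, the second activator of the same promoter elements, was at 7.23 and 7.35 and 1.90 and 1.48 and fell by 5.60 (SE 0.24, adjusted p = 1.06e-13). ADR1, which activates ADH2 and peroxisomal genes, rose by 0.80. All these calls held after centring.

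Glycolytic genes were called lower about as often as other genes. Of 26 genes of glycolysis and fermentation, 5 were higher and 18 lower as deposited, 69.2% lower beside 63.9% of all genes, and 8 and 12 after centring, 46.2% beside 45.5%, and their share of the summed RPKM was 8.70 and 10.2% with oxygen and 3.37 and 3.02% without. PGK1, phosphoglycerate kinase, fell from 12.27 and 12.60 to 8.70 and 8.13 log2 RPKM, a change of -4.01 (SE 0.25, adjusted p = 1.10e-11). TDH3 fell by 2.79 and the enolase ENO2 by 2.71. The rising genes were mostly isozymes of poor sugar or stress, namely TDH1, a glyceraldehyde-3-phosphate dehydrogenase, by 1.71, the glucokinase GLK1 by 1.87 and the alcohol dehydrogenase ADH5 by 2.81. PDC1, the main pyruvate decarboxylase, and ADH1, the main fermentative alcohol dehydrogenase, were called lower as deposited, at -1.19 and -1.16, but changed by -0.05 and -0.01 after centring, neither called. Without aerobic replicate A the ADH1 change of -0.78 did not pass either.

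The genes that carry xylose into metabolism went different ways. CpXylA was at 14.12 and 14.31 log2 RPKM with oxygen and 11.76 and 11.63 without, and fell by 2.52 (SE 0.29, adjusted p = 1.06e-07), or 5.75-fold. PsXyl3 was at 6.71 and 6.39 and 7.38 and 7.30 and rose by 0.79 (SE 0.20, adjusted p = 9.00e-04). Both calls held after centring. GRE3, the reductase that turns xylose into xylitol, changed by -0.23, which did not pass (adjusted p = 0.190, limma), and by 0.91 after centring, called higher. XYL2, a xylitol dehydrogenase, rose by 1.36 from low levels of 3.10 and 3.32.

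In the pentose phosphate pathway, through which xylulose is used, 3 main enzymes fell and their minor isozymes rose. Of 16 genes, 6 were higher and 9 lower as deposited, 56.2% lower beside 63.9% of all genes, and 7 and 9 after centring, 56.2% beside 45.5%. RKI1, ribose-5-phosphate isomerase, had the largest fall, from 6.79 and 5.80 to 0.88 and 1.195 log2 RPKM, a change of -5.26 (SE 0.33, adjusted p = 1.02e-11). Transketolase TKL1 fell by 3.96, transaldolase TAL1 by 3.46, and 6-phosphogluconate dehydrogenase GND1 by 3.08, while their second forms TKL2, NQM1 and GND2 rose by 1.72, 2.95 and 2.99. The lactonase SOL3 fell by 4.07. ZWF1, which has no second form and feeds glucose-6-phosphate into the oxidative branch, was at 6.37 and 6.46 with oxygen and 9.89 and 9.81 without and rose by 3.43 (SE 0.16, adjusted p = 2.07e-13). TAL1 was also introduced with the xylose genes, and the reads of the copies were not separated here.

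The exchange of a main form for a minor form was seen in several pathways. Within a library, the log2 ratio of NQM1 to TAL1 went from -2.17 and -1.204 with oxygen to 4.56 and 4.89 without, that of GND2 to GND1 from -2.85 and -1.81 to 3.69 and 3.79, and that of TKL2 to TKL1 from -2.66 and -1.29 to 3.72 and 3.70. The stress-induced Hsp110 SSE2 against its constitutive form SSE1 went from -2.51 and -1.27 to 4.26 and 4.54, and HSP82 against HSC82 from -2.81 and -2.50 to 1.79 and 1.68. Each of these ratios crossed 0 in both replicates. The thioredoxin ratio TRX2 to TRX1 rose from 1.48 and 1.66 to 7.75 and 8.39, and that of the peroxiredoxins TSA2 to TSA1 from -7.49 and -7.46 to -1.43 and -1.06. The 17 ratios plotted were picked after their values were seen and are given without a test.

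**Figure D4:**
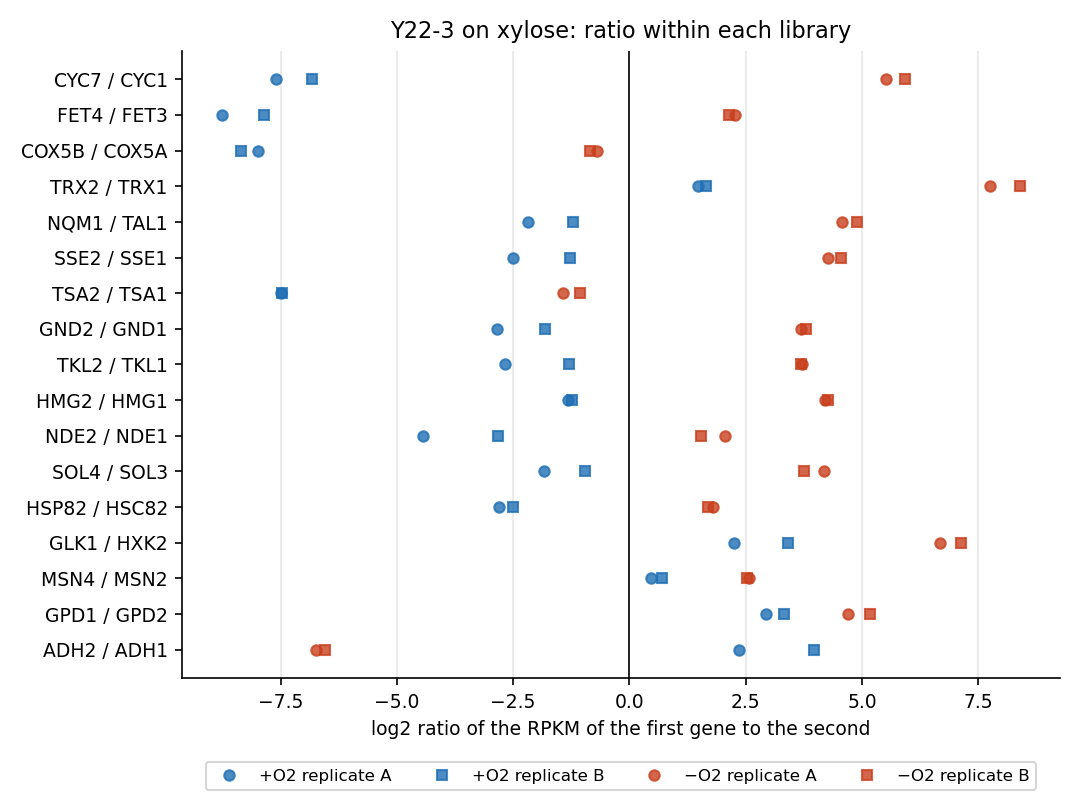
Log2 ratio of the RPKM of the first to the second gene of 17 pairs of isozymes or alternative proteins, within each of the 4 Y22-3 xylose libraries. Blue points are aerobic and red points anaerobic libraries. The ratio of CYC7 to CYC1 moved from -7.59 and -6.83 to 5.51 and 5.93, while ADH2 to ADH1 moved the other way, from 2.35 and 3.98 to -6.73 and -6.54.

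Sugar uptake genes were mixed. Of 14 hexose transporters, sensors and their regulators, 6 were higher and 6 lower as deposited, 42.9% each, beside 21.0% and 63.9% of all genes. After centring 7 were higher and 4 lower, beside 40.5% and 45.5% of all genes. The list was thus called higher more often, and lower less often, than other genes on both scales. HXT7 and HXT6, close copies of a high-affinity transporter that can share reads, fell by 2.05 and rose by 2.40. HXT2, another high-affinity transporter, fell from 9.55 and 10.25 to 5.56 and 5.11 log2 RPKM, a change of -4.56 (SE 0.36, adjusted p = 3.20e-10). MTH1, which keeps HXT genes repressed when glucose is absent, rose by 2.71. Of the glucose sensors, SNF3, of high affinity, rose by 0.93 and RGT2, of low affinity, fell by 1.90, both also after centring. The hexokinase HXK2, which takes part in glucose repression, fell by 2.21.

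Sterol synthesis, which needs oxygen, was mostly lower. Of 32 genes of sterol synthesis and uptake, 5 were higher and 27 lower as deposited, 84.4% lower beside 63.9% of all genes, and 8 and 23 after centring, 71.9% beside 45.5%, with a median change of -3.30 and a share of the summed RPKM of 0.748 and 0.733% with oxygen and 0.108 and 0.0930% without. ERG11, the lanosterol demethylase, was at 8.70 and 8.51 log2 RPKM with oxygen and 4.98 and 5.00 without and fell by 3.61 (SE 0.18, adjusted p = 5.80e-13). The other oxygen-requiring steps ERG1, ERG25, ERG3 and ERG5 fell by 3.19, 4.11, 4.43 and 4.83, and the methyltransferase ERG6 by 4.66. HMG1, the aerobic HMG-CoA reductase, fell by 4.58, while HMG2, its hypoxic form, rose by 0.94. The log2 ratio of HMG2 to HMG1 went from -1.32 and -1.23 to 4.21 and 4.26. ERG9, squalene synthase, was called lower as deposited at -0.87 and higher after centring at 0.27.

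UPC2, the activator that turns on sterol genes and importers without oxygen, was at 2.77 and 2.53 log2 RPKM with oxygen and 2.15 and 1.73 without. It was called lower as deposited at -0.71 (adjusted p = 8.97e-04, limma) and higher after centring at 0.43. ECM22, its paralog, was called lower at -0.70 and higher after centring at 0.45. AUS1, a sterol importer of the plasma membrane, was at 1.94 and 2.26 and 2.99 and 3.05 and rose by 0.92 (adjusted p = 3.40e-05, limma). SUT1, a regulator of sterol uptake, rose from 0.82 and 1.44 to 5.09 and 4.98, a change of 3.90, and the sterol esterification enzyme ARE1 by 2.72. OLE1, the oxygen-requiring fatty acid desaturase, and MGA2, its activator, fell by 3.49 and 2.67, both on both scales.

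The hypoxic genes listed by the study held 0.0236 and 0.0253% of the summed RPKM with oxygen and 0.0287 and 0.0249% without. Of the 21 genes, 16 reached a mean of 1 RPKM, with a median change of 0.76 beside -1.28 over all genes. As deposited, 10 of them were higher and 4 lower, beside 21.0% and 63.9% of all genes. After centring 12 were higher and 3 lower, beside 40.5% and 45.5% of all genes. TIR1 and YML083C passed the level filter only through the anaerobic group. Without them, 8 of 14 were higher and 4 lower as deposited, and 10 and 3 after centring. Among all genes that reached 1 RPKM in both groups, the shares were 21.4% and 63.1%, and 42.0% and 44.4%. The list was thus called higher more often than other genes on both scales, with and without these 2 genes. TIR1, a cell wall mannoprotein made without oxygen, was at -0.91 and -0.06 log2 RPKM with oxygen and 3.81 and 4.07 without. TIR4 of the same family rose by 3.24 from 0.58 and 0.19 and PAU17, a seripauperin, by 1.72 from 3.96 and 3.52. TIR3 fell by 2.42, and the fumarate reductases FRD1 and OSM1, which reoxidise cofactors without oxygen, by 2.84 and 1.73. The 5 genes under 1 RPKM were AAC3, ANB1, DAN1, PAU20 and PAU24. Members of the PAU, DAN and TIR families can share reads.

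Other genes tied to oxygen and heme gave no single direction. Of 25 genes of heme synthesis and oxygen regulation, 7 (28.0%) were higher and 16 (64.0%) lower as deposited, beside 21.0% and 63.9% of all genes. After centring they were 11 (44.0%) and 10 (40.0%), beside 40.5% and 45.5%, so the list was close to other genes on both scales. ROX1, the repressor of hypoxic genes, was at 6.14 and 5.59 log2 RPKM with oxygen and 5.04 and 5.21 without, a change of -0.74 that did not pass (SE 0.48, adjusted p = 0.154, limma), and of 0.40 after centring. HEM13, the oxygen-requiring step of heme synthesis, was called lower at -0.89, without aerobic replicate A at -0.72 no longer, and after centring was not called at 0.26. HMX1, heme oxygenase, fell from 7.05 and 7.19 to 1.77 and 1.496, a change of -5.49, and YHB1, flavohemoglobin, by 4.11.

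Iron uptake genes moved in opposite directions. FET3 and FTR1, the oxygen-dependent oxidase and permease of high-affinity iron uptake, were at 8.57 and 8.27 and 7.27 and 6.95 log2 RPKM with oxygen and at 3.76 and 3.60 and 2.19 and 2.26 without. They fell by 4.74 and 4.88 (adjusted p = 3.98e-12 and 2.30e-14, limma). FET4 (YMR319C), the low-affinity iron transporter that needs no oxygen, was at -0.18 and 0.41 with oxygen and 6.03 and 5.74 without and rose by 5.77 (SE 0.20, adjusted p = 9.83e-15). Of 31 genes of iron uptake and the iron regulon, 10 (32.3%) were higher and 19 (61.3%) lower as deposited, beside 21.0% and 63.9% of all genes. After centring they were 14 (45.2%) and 15 (48.4%), beside 40.5% and 45.5%. The list as a whole was thus called lower about as often as other genes. ISU1, the scaffold of iron-sulfur clusters, rose by 1.76.

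Most genes of cell division were lower without oxygen. Of 28 cyclins and cycle regulators, 4 were higher and 23 lower as deposited and 6 and 20 after centring, and of 44 DNA replication genes, 1 and 41, and 6 and 36 after centring. Of these, 3 in each list passed the level filter only through the aerobic group, and without them 20 of 25 and 38 of 41 were lower as deposited, beside 63.1% of all genes that reached 1 RPKM in both groups, and 17 and 33 after centring, beside 44.4%. The G1 cyclins CLN1, CLN2 and CLN3 were at 5.70 and 5.46, 4.92 and 4.04 and 6.11 and 5.95 log2 RPKM with oxygen and at 1.01 and 1.07, 0.80 and 1.12 and 2.35 and 2.23 without, falls of 4.54, 3.52 and 3.74. CLB2, the main mitotic cyclin, fell by 4.15, and CLB6 of S phase, which passed only through the aerobic group, was at least 20.3-fold lower, with 43 and 82 reads against 2 and 1. PCL1, a partner of the Pho85 kinase at the start of the cycle, passed in the same way and was at 5.18 and 4.68 log2 RPKM with oxygen and -1.56 and 0.13 without. RNR1, the large subunit of ribonucleotide reductase, fell by 4.42, and POL30, the sliding clamp, by 3.997. Of the 4 members that rose, 3 were brakes of the cycle, WHI5, the repressor of the start, at 1.93, SIC1, an inhibitor of the B-type cyclin kinase, at 1.31 and CDH1, which targets mitotic cyclins for destruction, at 2.12. The other was CLB5, an S phase cyclin, at 0.52, whose changes of 0.40 and 0.44 without anaerobic or aerobic replicate A no longer passed. RNR3, the damage-inducible reductase subunit, rose by 1.98.

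Genes of self-digestion rose in part. Of 42 genes of autophagy and vacuolar proteolysis, 23 (54.8%) were higher and 12 (28.6%) lower as deposited, beside 21.0% and 63.9% of all genes. After centring they were 31 (73.8%) and 5 (11.9%), beside 40.5% and 45.5%. ATG8, which coats the growing autophagosome, was at 6.12 and 6.58 log2 RPKM with oxygen and 9.62 and 9.89 without and rose by 3.40 (SE 0.26, adjusted p = 1.94e-10). The initiating kinase ATG1 rose by 2.18 and the vacuolar protease PRB1 by 2.25, while VPS15, a regulator of the phosphatidylinositol kinase, fell by 3.60. Of 34 proteasome genes, 7 (20.6%) were higher and 18 (52.9%) lower as deposited, near the shares of all genes. After centring, 24 (70.6%) were higher and 6 (17.6%) lower, beside 40.5% and 45.5% of all genes, so the direction depends on the scale. RPN4, their activator, rose by 1.66 on both scales, SCL1 of the core by 1.58, and PRE6 of the core fell by 3.17.

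Biosynthesis of amino acids was mostly lower. Of 80 genes, 6 were higher and 62 lower as deposited, 77.5% lower beside 63.9% of all genes, and 17 and 51 after centring, 63.7% beside 45.5%. MET17, which makes homocysteine from sulfide, fell by 4.99 and ILV5 of branched-chain synthesis by 4.10. GDH3, the glutamate dehydrogenase of nonfermentable growth, was at 2.44 and 2.90 log2 RPKM with oxygen and 8.16 and 7.65 without and rose by 5.24 (SE 0.27, adjusted p = 7.39e-13), and STR3, which breaks down cystathionine, rose by 3.85. GCN4, the activator of the pathway, changed by -0.09, which did not pass (adjusted p = 0.661, limma), became 0.085 without aerobic replicate A and was 1.05 after centring, called higher. Of 25 genes of nitrogen catabolite repression, 6 (24.0%) were higher and 14 (56.0%) lower as deposited, beside 21.0% and 63.9% of all genes. After centring they were 13 (52.0%) and 10 (40.0%), beside 40.5% and 45.5%. The general permease GAP1 fell by 2.66, and PUT1 and CAR2, which break down proline and arginine, rose by 2.65 and 3.17.

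Oxidative defence and peroxisomes were divided. Of 31 oxidative defence genes, 13 (41.9%) were higher and 11 (35.5%) lower as deposited, beside 21.0% and 63.9% of all genes. After centring they were 21 (67.7%) and 8 (25.8%), beside 40.5% and 45.5%. TRX1, a cytosolic thioredoxin, fell from 8.08 and 8.06 to 3.48 and 2.73 log2 RPKM while its copy TRX2 rose from 9.56 and 9.72 to 11.23 and 11.13, changes of -4.97 and 1.54. The peroxiredoxin TSA1 fell by 3.48, and TSA2 rose by 2.75. Of 39 genes of peroxisomes and fatty acid oxidation, 11 (28.2%) were higher and 19 (48.7%) lower as deposited. After centring they were 21 (53.8%) and 11 (28.2%), so falls were called less often than over all genes on both scales. PEX21, an import receptor partner, and ANT1, the peroxisomal ATP carrier, fell by 4.55 and 4.52, and PEX22, which anchors a ubiquitin-conjugating enzyme there, rose by 2.80.

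The smaller groups gave mixed counts. Over all genes, 21.0% were higher and 63.9% lower as deposited, and 40.5% and 45.5% after centring. Of 12 glycerol genes, 1 was higher and 4 lower as deposited and 9 and 3 after centring, and GPD1, which makes glycerol from a glycolytic intermediate, was the one that rose, by 1.06. Of 9 histone genes tested, 2 were higher and 5 lower as deposited and 5 and 2 after centring, and HTB2, a histone H2B gene, fell by 2.78. Of 47 meiosis and sporulation genes, 26 reached the level tested, with 5 higher and 14 lower as deposited and 10 and 6 after centring. Of the 26, 4 passed only through the anaerobic group, among them MEK1, and 8 only through the aerobic group, among them SPO16. Without them, 2 of 14 (14.3%) were higher and 6 (42.9%) lower as deposited, and 6 (42.9%) and 2 (14.3%) after centring. Among all genes that reached 1 RPKM in both groups, the shares were 21.4% and 63.1%, and 42.0% and 44.4%. MEK1, a meiotic checkpoint kinase, had 0 and 3 reads with oxygen and 99 and 75 without, which makes it at least 16.2-fold higher. SPO16, of meiotic recombination, had 21 and 42 reads and 1 and 1 reads, at least 10.3-fold lower.

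The change on xylose was next set against that of the same strain on glucose, where growth went on without oxygen. The 4 groups share no library, and the difference of the 2 changes was tested as an interaction of sugar and oxygen. As deposited, 686 genes (11.9%) had a higher change on xylose and 3724 (64.7%) a lower one. The median change was 0.14 on glucose and -1.28 on xylose, and after centring the counts were 2094 (36.4%) and 2041 (35.5%). Of the genes called in the 2 comparisons, 807 were higher and 1366 lower on both sugars, 903 were lower on xylose and higher on glucose, and 100 were higher on xylose and lower on glucose.

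**Figure D5:**
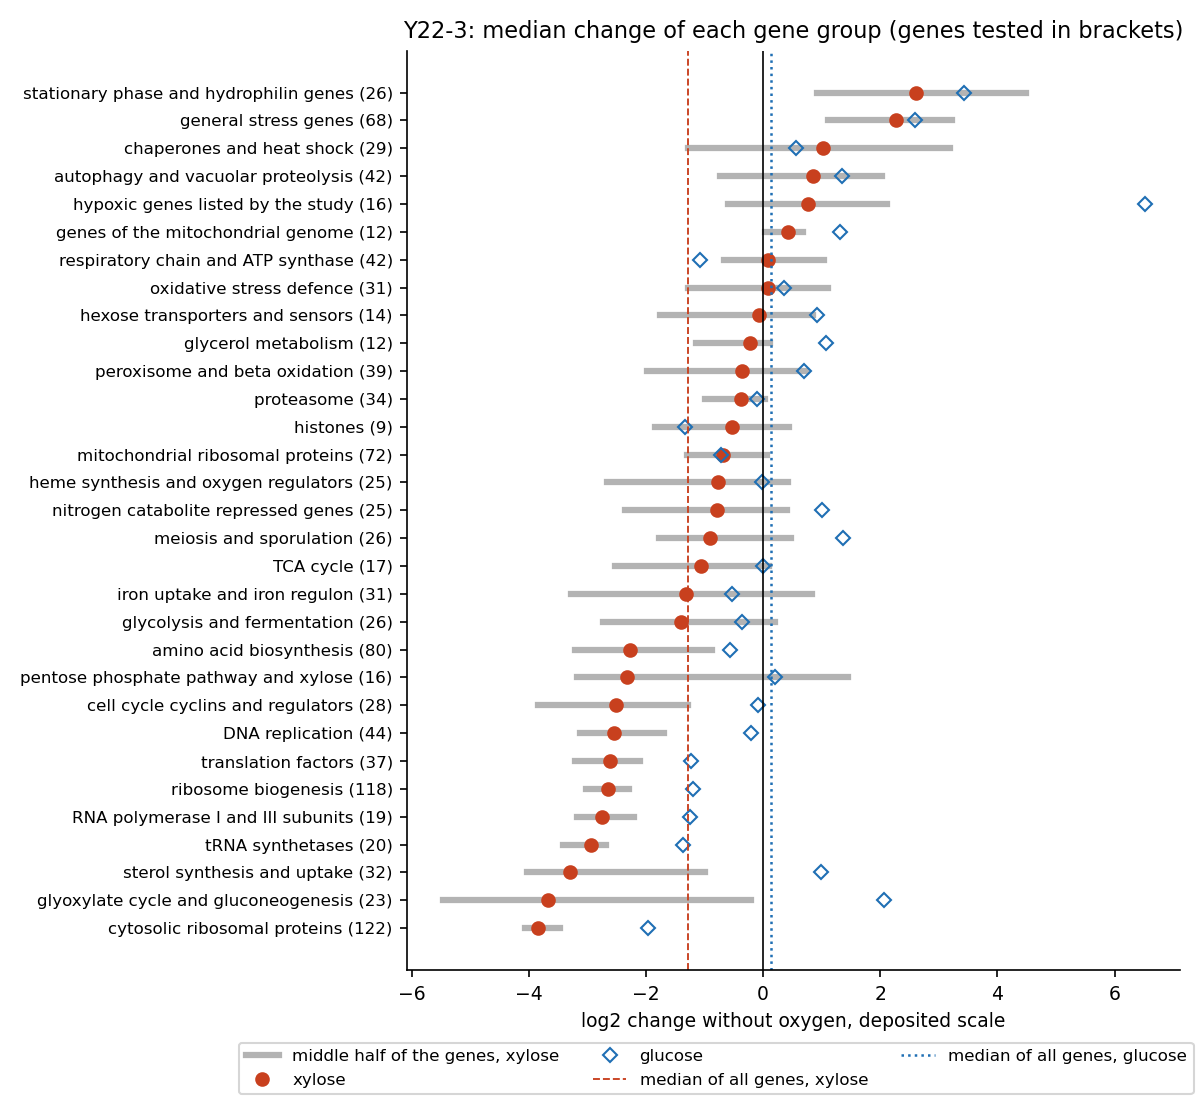
Median log2 change without oxygen of 31 gene groups in Y22-3 on xylose (red points, with the quartile range of the genes in grey) and on glucose (blue diamonds), deposited scale. The dashed and dotted lines are the medians of all 5752 genes, -1.28 on xylose and 0.14 on glucose. The hypoxic genes lie at 0.76 and 6.51, sterol genes at -3.30 and 0.98, and respiratory genes at 0.09 and -1.09.

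Genes of sterols and of the hypoxic response went apart between the sugars. Of 32 sterol genes, 30 had a lower change on xylose as deposited, beside 64.7% of all genes, and 26 after centring, beside 35.5%. ERG11 rose on glucose by 2.29, to 11.35 and 11.70 log2 RPKM, so that its change on xylose was lower by a difference of -5.90 (SE 0.25, adjusted p = 2.75e-13). AUS1 rose on glucose from 1.62 and 1.42 to 9.94 and 10.08 log2 RPKM, a change of 8.49, and the difference was -7.57 (SE 0.23, adjusted p = 2.73e-15). OLE1, UPC2 and HEM13 rose on glucose by 4.62, 4.96 and 5.05, with differences of -8.11, -5.68 and -5.94. All 16 hypoxic genes tested rose on glucose, with a median change of 6.51 beside 0.14 over all genes. On glucose the list took 0.0332 and 0.0383% of the summed RPKM with oxygen and 8.35 and 12.7% without. The change of these genes was lower on xylose in 16 as deposited, beside 64.7% of all genes, and in 14 after centring, beside 35.5%. TIR1 was at 6.24 and 6.99 and 12.31 and 12.08 log2 RPKM on glucose, far above its xylose levels both with and without oxygen, and its difference of -1.16 was called as deposited but not after centring, where it was 0.24, nor when any of 6 of the 8 libraries was left out. DAN1 and ANB1, not tested on xylose, reached 10.72 and 10.82 and 9.53 and 9.29 log2 RPKM without oxygen on glucose.

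Carbon genes also parted. PCK1 rose on glucose by 5.86, from 0.60 and 0.43 to 6.28 and 6.48 log2 RPKM, against its fall on xylose, a difference of -9.78 (SE 0.30, adjusted p = 2.73e-15). Of the 23 glyoxylate and gluconeogenic genes, 18 had a lower change on xylose as deposited, beside 64.7% of all genes, and 17 after centring, beside 35.5%. Their starting levels differed, however, since they held 0.0295 and 0.0280% of the summed RPKM in aerobic glucose and 4.25 and 7.31% in aerobic xylose. By the rule for the largest differences, YLR307C-A, SFC1, ADH2 and GTK30P00120, of which the first and the last passed the level filter only through the aerobic group, had the lowest change on xylose against glucose, at -13.93, -13.10, -11.54 and -11.09. ADH2 was low on glucose with and without oxygen, at 2.83 and 2.80 and 3.19 and 3.61.

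Respiratory genes went the other way. Of 42 genes, 31 had a higher and 3 a lower change on xylose as deposited, and 39 and 1 after centring, beside 11.9% and 64.7%, and 36.4% and 35.5%, of all genes. HAP4 did not pass on glucose, at -0.37 (adjusted p = 0.167, limma), and its difference between the sugars was 2.07 (SE 0.32, adjusted p = 9.09e-06). The largest differences upward were those of COX26 at 6.28, YNR014W at 6.13, YKL065W-A at 6.12 and YER053C-A at 5.78. Of these, YNR014W passed the level filter only through the anaerobic xylose group, so its difference is not read as a test result. YER053C-A, an uncharacterized reading frame, changed by -1.78 on xylose and by -7.57 on glucose, so it was lower on both sugars. CYC7 rose on glucose too, by 4.94, and CYC1 fell there by 6.13.

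Most stress genes rose on both sugars. Of the 68 Msn2 and Msn4 targets, 62 were higher on glucose (median 2.59) and 56 on xylose (median 2.27). The medians over all genes were 0.14 and -1.28. The share of all genes called on glucose is not given here, so counts of calls on glucose stand without it. Levels of the targets were far apart, however. The list took 3.32 and 4.59% of the summed RPKM in anaerobic glucose and 28.5 and 30.6% in anaerobic xylose. HSP12 rose by 4.96 on glucose to 10.61 and 11.31 log2 RPKM, and its difference of -1.23 between the sugars did not pass (adjusted p = 0.319, limma) and was 0.18 after centring. HSP30 and SPI1 rose by 5.61 and 5.55 on glucose, less than on xylose. PMP3 and HOR7, small membrane and stress proteins of the anaerobic xylose top 10, fell on glucose by 1.25 and 0.80, with differences of 3.12 and 2.99. Ribosomal protein genes were lower on both sugars, with 119 of 122 on glucose and medians of -1.96 and -3.84, beside 0.14 and -1.28 over all genes. Their change was lower on xylose in 108 and higher in 1 as deposited, beside 64.7% and 11.9% of all genes, and lower in 28 and higher in 8 after centring, beside 35.5% and 36.4%.

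The changes of Y127 and Y128 on xylose share the Y22-3 libraries as their reference, so the 2 sets of differences are not independent. After centring, 1872 genes (32.5%) had a higher and 1992 (34.6%) a lower change in Y127 than in Y22-3, and 2322 (40.4%) and 2194 (38.1%) in Y128 than in Y22-3. The median change of all genes was 0.13 in Y127 and -0.11 in Y128, against -1.28 in Y22-3. Y127 did not grow without oxygen either.

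The groups that stood out in Y22-3 were set side by side in the 3 strains. The median change of the 122 ribosomal protein genes was -3.84 in the parent, beside -2.57 for Y127 and -0.78 for Y128, and after centring 110 of them had a higher and 2 a lower change in Y128 than in Y22-3, beside 40.4% and 38.1% of all genes, but 3 a higher and 14 a lower change in Y127, beside 32.5% and 34.6%. Respiratory genes had medians of 0.09, -0.42 and -2.49, with 35 of 42 lower than in Y22-3 in Y127 and 40 in Y128 after centring, beside 34.6% and 38.1% of all genes. The hypoxic genes had medians of 0.76, 2.81 and 7.05, with 9 and 14 of 16 higher after centring, beside 32.5% and 40.4%. Stress genes had medians of 2.27, 2.43 and 1.198 as deposited, and 39 and 56 of 68 were lower after centring, beside 34.6% and 38.1%. For Y127 the deposited median lay above that of Y22-3 while the centred calls went lower, so its direction depends on the scale.

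Single genes followed their own course. CYC7 had 10.48 and 10.56 log2 RPKM in anaerobic Y22-3, 5.27 and 6.31 in anaerobic Y127 and 1.97 and 2.13 in anaerobic Y128. Its change was lower than in Y22-3 by differences of -4.33 in Y127 (SE 0.68, adjusted p = 9.94e-06) and -7.66 in Y128 (SE 0.68, adjusted p = 4.45e-09). SPI1 reached 10.23 and 11.003 in anaerobic Y127 and 5.29 and 5.02 in anaerobic Y128, and its change in Y128 was lower by -5.60 (SE 0.55, adjusted p = 1.74e-08). ADH2, which fell in Y22-3, was at 7.25 and 7.31 with oxygen in Y127 and rose there by 1.29, and went from 6.82 and 6.97 to 3.83 and 3.34 in Y128. Its change was higher than in Y22-3 by 12.24 in Y127 (SE 0.42, adjusted p = 3.90e-14) and by 7.64 in Y128 (SE 0.42, adjusted p = 8.84e-12). The aerobic level of ADH2 was far higher in Y22-3 than in either evolved strain, and these differences include that gap. FET4 rose in all 3 strains, by 5.77 in Y22-3, 6.96 in Y127 and 4.63 in Y128.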

How the data were processed

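RNA was depleted of ribosomal RNA and sequenced as stranded single-end libraries. The authors trimmed reads with Trimmomatic 0.3.0, mapped them with Bowtie2 2.2.2 to a Y22-3 genome and counted them per gene with HTSeq 0.6.0, per the submitters' processing notes. The strand setting of the counting was not given in the sources used here, so reads of overlapping and antisense genes may be mixed. The deposited values are log2 RPKM, which the authors computed after adding what appears to be 1 read, so that a gene without reads still has a value. That value gave the depth of each library from 41 genes at the lowest value in all 4 libraries and their reference lengths, of which 65.9% gave a total within 1% of the median. Of values under 200 reads, 81.7 to 88.5% then came out within 0.1 of a whole number of reads. A fold against a group without reads was set against 3 reads per library and covers counting error only.

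Genes with a mean of at least 1 RPKM over the 4 libraries were tested with limma 3.58.1 (R 4.3.3, lmFit and eBayes with a trend) on 24 libraries in 12 groups, both as deposited and after subtracting the median of the tested genes from each library. Standard errors are limma's. Replicates are separate cultures of 1 strain. Gene names of the reference strain S288C were joined by identifier, and no coordinates were used because the files rest on the Y22-3 genome. Of 165 genes known only by a Y22-3 identifier, 114 were tested. Promoter sequences were not used here, and the planned search for motifs was not run. Tables were made with Python 3.11.15, pandas 2.3.3 and numpy 2.4.6, figures with matplotlib 3.10.9. The fit was tested on simulated data.

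Genes and lists were chosen with earlier results of these data known. Genes were named by rule, as the 12 largest rises and falls at a mean of at least 10 RPKM, the 3 largest changes and the highest level of each list, the 4 largest differences from glucose in each direction, and genes that define a pathway. The most abundant genes, the exceptions within lists and the gene pairs were picked after their values were seen. Alternatives were no filter, a filter at 10 RPKM or over all duplicated libraries, other added constants, only the groups compared, a replicate block, a fold threshold of 2, centring, and leaving out each library. Replicate letters were not taken as pairs (r = -0.05 over genes for the 2 main groups), because the sources give them no meaning shared between groups. The single libraries on galactose and sorbitol entered no test.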

Additional observations from a re-analysis of the deposited data

Results flagged for a closer look

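The change without oxygen differed between xylose and glucose in Y22-3 for 686 genes upward and 3724 downward as deposited, by the interaction term of limma at an adjusted p of 0.05. Against Y22-3 on xylose, Y127 differed in 3748 genes upward and 519 downward, and Y128 in 3397 and 1117, with the Y22-3 libraries shared by both sets.

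Named genes were listed for the same reason. The change on xylose was lower than on glucose by a difference of -13.93 for YLR307C-A, -13.10 for SFC1 and -11.54 for ADH2. For GTK30P00120 and PCK1 the differences were -11.09 and -9.78. All of these genes had a high aerobic level on xylose. YLR307C-A and GTK30P00120 passed the level filter only through the aerobic xylose group, so their differences are not read as test results. Oxygen-linked lipid and heme genes differed by -8.11 for OLE1, -7.57 for AUS1, -5.94 for HEM13, -5.90 for ERG11 and -5.68 for UPC2. Higher changes on xylose were those of COX26 at 6.28, YNR014W at 6.13, YKL065W-A at 6.12 and YER053C-A at 5.78. PMP3, HOR7 and HAP4 followed at 3.12, 2.99 and 2.07. YNR014W passed the level filter only through the anaerobic xylose group, so its difference is not read as a test result.

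Between strains, the change of CYC7 was lower than in Y22-3 by -4.33 in Y127 and -7.66 in Y128, and that of SPI1 by -5.60 in Y128. The change of ADH2 was higher by 12.24 in Y127 and 7.64 in Y128.

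Libraries outside the comparisons also carried a signal. The 68 general stress genes took 41.9% of the summed RPKM in the single anaerobic sorbitol library of Y22-3 and 25.2% in the single anaerobic galactose library, both above the aerobic libraries on the same sugars. Neither was tested.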

How the results depend on the processing

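With centred libraries the genes higher without oxygen numbered 2327 in place of 1207, and 2243 and 2261 when aerobic replicate A or B was also left out, a check chosen after seeing the data. The median change was -0.14 after centring, and -0.12 and -0.17 without aerobic replicate A or B. For the differences between sugars, centring gave 2094 higher and 2041 lower in place of 686 and 3724. For Y127 it gave 1872 higher and 1992 lower in place of 3748 and 519, and for Y128 2194 lower in place of 1117. A fold threshold of 2 left 616 genes higher on xylose, 278 with a higher change than on glucose, 2295 higher and 130 lower in Y127, and 564 lower in Y128. With a mean of at least 10 RPKM, 3956 genes were tested, which left 2309 lower on xylose, 2339 with a lower change than on glucose, and 2371 and 2095 higher in Y127 and Y128. The median change was then -0.90, and -1.11 with a constant of 1 RPKM added. Leaving out 1 library gave 1061 to 1170 higher and 3439 to 3639 lower genes and a median of -1.44 to -1.15. For the sugars it gave 605 to 665 and 3511 to 3768, for Y127 3397 to 4033 and 388 to 683, and for Y128 3210 to 3442 and 1014 to 1075.

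After centring the sign turned for RIM15 (0.29), RPS27A (0.86), COX5A (0.46), ATP2 (0.30), CIT2 (0.28), GRE3 (0.91), ERG9 (0.27), UPC2 (0.43), ECM22 (0.45), HEM13 (0.26), ROX1 (0.40) and GCN4 (1.05), and for the glucose differences of HSP12 (0.18) and TIR1 (0.24). Without aerobic replicate A it turned for RPS27A (0.13) and GCN4 (0.085), which were -0.69 and -0.27 without aerobic replicate B. Of 3228 alternatives for named genes, 3162 kept direction and call, 47 lost the call, 3 gained it and 16 turned. Calls were lost on leaving out 1 library in 11 of 996 cases. The fit with a replicate block called 1201 genes higher and 3661 lower on xylose, 680 and 3737 for the sugars, 3762 and 515 for Y127 and 3406 and 1114 for Y128, and changed no call of a named gene. The letters were not taken as pairs, since over 45 pairs of groups the replicates correlated by -0.11 to 0.33, in 7 pairs above 0.1, and by -0.05 in the main pair. Genes near 1 RPKM rest on few reads, and aerobic replicate A had the lowest depth, 7.53 M reads.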

Other observations

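The single Y22-3 libraries on sorbitol, on which it did not grow, and galactose lie outside the comparisons and have no replicate. The general stress genes took 12.2% of the summed RPKM with oxygen and 41.9% without on sorbitol, and 4.19% and 25.2% on galactose. HSP12, the leading transcript of anaerobic xylose, took 15.9% without oxygen on sorbitol and 6.997% on galactose. On xylose without oxygen the same genes took 5.50 and 6.70% in the replicates of Y127 and 2.10 and 2.16% in those of Y128.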
